A study of Mus musculus with 39 samples.

Results

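The genes described here encode 10 cyclic nucleotide phosphodiesterases, out of 37583 genes counted in mouse femoral cortical bone RNA. The members were given by name (Pde1a, Pde3a, Pde3b, Pde4a, Pde4b, Pde4d, Pde7a, Pde7b, Pde8a and Pde10a) and found in the count tables through their Ensembl gene identifiers. All 10 were detected in every library, with between 92 and 3914 counts, and all 10 passed the filter on low counts in both experiments.

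Phosphodiesterases end a cyclic nucleotide signal by cutting cAMP or cGMP to its inactive monophosphate. In bone, parathyroid hormone acts on osteoblasts and osteocytes through the receptor Pth1r, which activates adenylyl cyclase through a stimulatory G protein. The cAMP made there activates protein kinase A, and that kinase holds the salt-inducible kinases (SIKs) in check. PDE4, PDE7 and PDE8 enzymes cut cAMP and spare cGMP, whereas PDE1, PDE3 and PDE10 enzymes cut both. Calcium and calmodulin switch on PDE1 enzymes, and cGMP competitively inhibits PDE3 enzymes.

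The libraries came from 2 experiments, each with its own wild type (WT) group. The first had 8 libraries labelled Sik2/3 DKO, for a double knockout of the kinases Sik2 and Sik3, and 8 libraries labelled WT. The second had 12 libraries labelled Col1a1-Pth1r H223R (C1HR), from mice in which a Col1a1 promoter, active in osteoblasts, drives a parathyroid hormone receptor that signals without its hormone, and 11 libraries of its own WT. The age, sex and strain of the mice and the cells in which the kinases were deleted are not given in the sources used here. The design text says that the C1HR experiment omitted the step that flushes marrow from the bone, whereas the extraction protocol attached to each library includes it. Nothing in the labels says that the libraries of a group came from separate animals. Each p-value sets a group difference against the spread between these libraries, which need not be the spread between animals.

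Counts assigned to genes ranged from 22122742 to 23306853 per library labelled DKO and from 20324595 to 24922490 per library labelled WT. The C1HR libraries had 14909609 to 16370874 and their WT libraries 11444686 to 13475805. Reads that were not assigned to a gene came to 33.8% to 43.6% in C1HR against 52.3% to 61.2% in its WT group, with no overlap. They came to 40.6% to 47.0% in DKO-labelled libraries against 36.6% to 53.8% in WT-labelled libraries. There WT 5 (53.8%) and WT 6 (43.1%) stood apart. The other libraries labelled WT, at 36.6% to 38.2%, were below every library labelled DKO, and the part of this in the gene values was not tested. Reads without a unique place were 29.7% in the median C1HR library and 48.7% in the median library of its WT group, and the part of this gap in the gene values was not tested. Levels are given as CPM, counts relative to library sizes that were scaled by TMM within each experiment, so levels are compared within an experiment. Sik2 went against the knockout label, with 29.7 ± 6.60 CPM in DKO-labelled libraries and 19.1 ± 3.20 CPM in WT-labelled libraries (SD, n = 8 each). Sik3 had 90.0 ± 15.02 CPM in DKO-labelled libraries and 104 ± 25.3 CPM in WT-labelled libraries and did not pass the test (log2 change -0.21 with SE 0.14, edgeR adjusted p = 0.223). Counts per gene cannot show a deleted exon, so Sik2 and Sik3 counts need not fall in a knockout. In C1HR against its WT group, Sik2 was lower (log2 change -0.60, edgeR adjusted p = 1.47e-06) and Sik3 higher (1.01, edgeR adjusted p = 2.04e-11). Directions in the Sik2/3 experiment compare libraries by their labels. Whether its labels are exchanged was not tested, and an exchange would turn the sign of each of its changes. On the first principal component of all tested genes, WT 5 and WT 6 of the Sik2/3 experiment lay next to DKO-labelled libraries, and C1HR 8 and C1HR 9 lay between the C1HR libraries and their WT group. The members' results are given with and without these 4 libraries, and other genes of the pathway without them where a call changes or a fold change moves by over 1.5 times. Markers of osteocytes, the main cell of cortical bone, were present in every library, with summed levels of 1114 to 7313 CPM in DKO-labelled libraries against 2232 to 4361 CPM in WT-labelled libraries, and of 1732 to 2865 CPM in C1HR against 308 to 588 CPM in its WT group.

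The transcription factor CREB, a target of protein kinase A, binds the cAMP response element TGACGTCA or its shorter form TGACG, which reads CGTCA on the other strand. RefSeq promoters on GRCm38.p6 were available for 7 of the 10 members, 16 promoters in all. Of these 16, 4 (25%) held TGACG or CGTCA in the 250 bases before the start site, against 17.8% of 32851 mouse promoters, and 0 held TGACGTCA, against 1.55% of all. The full element contains both shorter forms, so the counts overlap. The windows around the 4 matches follow. A changed level does not set their genes apart, because all 10 members passed the test in C1HR, as did 84.3% of all genes. Each is written 5′ to 3′ on the strand of its gene with the motif in capitals and its distance in bases from the start site, and was found by exact match at a single place in mm9.
Pde8a, chr7:88358042-88358096, plus strand, motif at -84 to -80: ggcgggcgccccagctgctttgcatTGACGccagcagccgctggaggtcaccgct
Pde4a, chr9:20988470-20988524, plus strand, motif at -50 to -46: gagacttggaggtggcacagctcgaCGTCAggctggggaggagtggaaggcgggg
Pde4b, chr4:102094101-102094155, plus strand, motif at -34 to -30: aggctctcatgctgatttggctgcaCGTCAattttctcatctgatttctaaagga
Pde1a, chr2:79879196-79879250, minus strand, motif at -166 to -162: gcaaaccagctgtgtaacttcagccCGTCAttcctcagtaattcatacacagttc
The Pde4a, Pde4b and Pde1a windows lie inside the annotated spans of their genes, at start sites within the gene, and the Pde8a window lies just before the annotated gene. A match of these letters is a description and does not show that the factor binds there.

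The Sik2/3 experiment asks what loss of both kinases changes in bone RNA. Of the 10 phosphodiesterase genes, 6 fell in DKO-labelled libraries (Pde3b, Pde4a, Pde4b, Pde4d, Pde7b and Pde8a), Pde3a rose, and Pde1a, Pde7a and Pde10a did not pass the test. Among all 15479 genes tested, 55.0% passed an adjusted p under 0.05, 30.9% lower and 24.1% higher. The 6 cAMP-specific genes split into 5 that fell and 1 that did not pass, and the 4 genes for enzymes that cut both nucleotides into 1 that rose, 1 that fell and 2 that did not pass. The median log2 fold change of the 10 members was -0.52, against -0.09 over all genes tested. Only Pde7b also exceeded a 2-fold change, which 17.4% of all genes did, 6.76% in the lower direction. Pde7b and Pde4d were the members whose 2 groups did not overlap, where 4.08% of all genes were lower and 5.96% higher with no overlap.

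**Figure D1:**
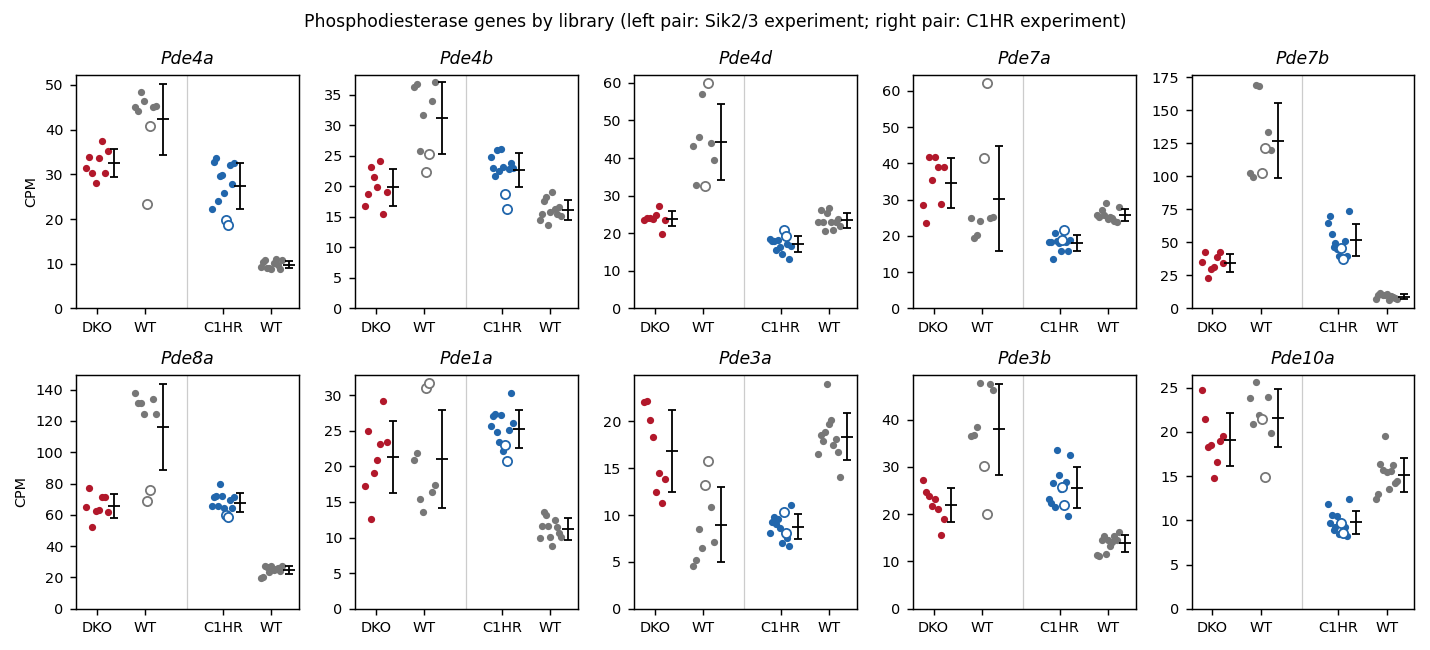
CPM of the 10 phosphodiesterase genes in each library of the Sik2/3 experiment (left pair in each panel, labelled DKO and WT) and of the C1HR experiment (right pair, C1HR and WT). Points are libraries, open circles are WT 5, WT 6, C1HR 8 and C1HR 9, and bars show mean ± SD. Pde7b separates the groups in both experiments, with 22.8 to 42.8 CPM in DKO-labelled libraries against 99.3 to 169 CPM in WT-labelled libraries, and 37.8 to 73.5 CPM in C1HR against 6.43 to 11.9 CPM in its WT group.

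Pde7b (ENSMUSG00000019990; chr10:20117810-20444884, minus strand, mm9) encodes a cAMP-specific enzyme with high affinity for its substrate. Its lowest, median and highest levels were 22.8, 34.8 and 42.8 CPM in the 8 DKO-labelled libraries, against 99.3, 121 and 169 CPM in the 8 labelled WT. The groups did not overlap, and WT 3 and WT 4 were the highest libraries. Pde7b was 3.66-fold lower in DKO-labelled libraries (log2 change -1.87 with SE 0.15, edgeR adjusted p = 3.49e-06). In RNA from whole bone, fewer cells of a type and less RNA per cell cannot be told apart.

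Pde8a (ENSMUSG00000025584; chr7:88358482-88479419, plus strand) encodes a cAMP-specific enzyme that the general inhibitor IBMX does not block. It had 52.2, 63.8 and 77.2 CPM (lowest, median, highest) in DKO-labelled libraries, against 68.8, 128 and 138 CPM in WT-labelled libraries. WT 5 (68.8 CPM) and WT 6 (76.0 CPM) lay within the range of DKO-labelled libraries, and the other 6 labelled WT lay between 124 and 138 CPM. Pde8a was 1.77-fold lower in DKO-labelled libraries (log2 change -0.82 with SE 0.14, edgeR adjusted p = 0.000211), and had a log2 fold change of -0.97 without WT 5 and WT 6. Pde7a (ENSMUSG00000069094; chr3:19123108-19211322, minus strand), a relative of Pde7b that is expressed in T cells, had 23.6, 37.2 and 41.7 CPM in DKO-labelled libraries, against 19.3, 25 and 62.1 CPM in WT-labelled libraries. WT 6 and WT 5, at 62.1 and 41.4 CPM, stood above the other 6 labelled WT, which reached 25.1 CPM. Of its 7748 exon bases, 48 overlap Gm16093 on the opposite strand, and reads were counted without strand. The difference did not pass the test with all libraries (log2 change 0.20 with SE 0.22, edgeR adjusted p = 0.47). It passed without WT 6 (0.44, edgeR adjusted p = 0.0304) and without WT 5 and WT 6 (0.61, edgeR adjusted p = 0.00063).

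Pde4a, Pde4b and Pde4d all fell in DKO-labelled libraries. PDE4 enzymes are cAMP-specific and are the targets of rolipram, and protein kinase A activates their long forms by phosphorylation. Pde4d (ENSMUSG00000021699; chr13:109240142-110743669, plus strand) had 19.8, 23.96 and 27.2 CPM in DKO-labelled libraries, against 32.5, 43.6 and 59.9 CPM in WT-labelled libraries. Each library labelled DKO was below each library labelled WT. The fall was 1.86-fold (log2 change -0.89 with SE 0.12, edgeR adjusted p = 4.38e-05).

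Pde4b (ENSMUSG00000028525; chr4:101760148-102279864, plus strand), known from leukocytes for its part in tumour necrosis factor release, had 15.4, 19.5 and 24.2 CPM in DKO-labelled libraries, against 22.4, 32.8 and 37.1 CPM in WT-labelled libraries. Only WT 5, at 22.4 CPM, lay within the range of DKO-labelled libraries. Pde4b was 1.57-fold lower in DKO-labelled libraries (log2 change -0.65 with SE 0.12, edgeR adjusted p = 0.00047). Pde4a (ENSMUSG00000032177; chr9:20970158-21017692, plus strand) had 27.96, 32.5 and 37.4 CPM in DKO-labelled libraries, against 23.4, 45.1 and 48.4 CPM in WT-labelled libraries. WT 5 was the lowest library of all at 23.4 CPM, and the other 7 labelled WT were above every library labelled DKO. Pde4a was 1.30-fold lower in DKO-labelled libraries (log2 change -0.38 with SE 0.12, edgeR adjusted p = 0.0123), a call that was lost with libraries scaled by their totals alone (-0.15, edgeR adjusted p = 0.217).

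Among the enzymes that cut both nucleotides, the PDE3 genes moved in opposite directions in DKO-labelled libraries. Pde3a (ENSMUSG00000041741; chr6:141197790-141447872, plus strand), the isoform of platelets, heart and oocytes, had 11.3, 16.4 and 22.2 CPM in DKO-labelled libraries, against 4.58, 7.82 and 15.8 CPM in WT-labelled libraries. WT 5 and WT 6 lay within the range of DKO-labelled libraries at 13.2 and 15.8 CPM, and the other 6 labelled WT were below it. Pde3a was 1.88-fold higher in DKO-labelled libraries (log2 change 0.91 with SE 0.25, edgeR adjusted p = 0.00552). Pde3b (ENSMUSG00000030671; chr7:121558795-121682765, plus strand), which carries the antilipolytic action of insulin in fat cells, had 15.5, 22.4 and 27.2 CPM in DKO-labelled libraries, against 20.1, 37.6 and 47.7 CPM in WT-labelled libraries. WT 6 alone lay within the range of DKO-labelled libraries. Pde3b was 1.72-fold lower in DKO-labelled libraries (log2 change -0.78 with SE 0.16, edgeR adjusted p = 0.000717).

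Pde1a (ENSMUSG00000059173; chr2:79674610-79969632, minus strand), a calmodulin-dependent enzyme, had 12.6, 22.04 and 29.2 CPM in DKO-labelled libraries, against 13.6, 19.1 and 31.7 CPM in WT-labelled libraries. The groups overlapped along most of their range, and WT 5 and WT 6 were the highest libraries. The log2 fold change was 0.02 (SE 0.19, edgeR adjusted p = 0.935), and 0.31 without WT 5 and WT 6 (edgeR adjusted p = 0.117). Pde10a (ENSMUSG00000023868; chr17:8718237-9179513, plus strand), best known from the striatum of the brain, had 14.8, 18.7 and 24.7 CPM in DKO-labelled libraries, against 14.9, 21.7 and 25.6 CPM in WT-labelled libraries. Those ranges were close to each other, and the log2 fold change of -0.17, with an SE of 0.11, did not pass (edgeR adjusted p = 0.206), nor did the -0.22 without WT 5 and WT 6 (edgeR adjusted p = 0.0741).

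Markers of blood lineages, osteoblasts, osteoclasts, macrophages and mast cells also moved in this experiment. In DKO-labelled libraries, 6 of 7 erythroid markers rose, with summed levels of 2827 to 8628 CPM against 69.7 to 4435 CPM in WT-labelled libraries. The same held for 6 of 7 granulocyte markers, with 8656 to 21830 CPM in DKO-labelled libraries against 767 to 14740 CPM in WT-labelled libraries. All 5 megakaryocyte markers rose, with 892 to 2201 CPM in DKO-labelled libraries against 41.9 to 1189 CPM in WT-labelled libraries. All 7 B lineage markers and 5 of 7 T and NK cell markers rose. All 6 tested osteoclast markers fell, with 3552 to 8239 CPM in DKO-labelled libraries against 4409 to 30810 CPM in WT-labelled libraries, and 3 of 6 osteoblast markers fell. Of the 5 macrophage markers 4 fell and none rose, with 617 to 962 CPM in DKO-labelled libraries against 601 to 2372 CPM in WT-labelled libraries. Of the 5 mast cell markers 4 fell and 1 rose, with 42.7 to 84.1 CPM in DKO-labelled libraries against 66.1 to 668 CPM in WT-labelled libraries. Smooth muscle (2 of 4), nerve and glia (1 of 3 tested) and endothelial (1 of 5) markers also fell in part. Of the 5 osteocyte markers 1 rose and 0 fell. Of the 4 tested adipocyte markers 0 rose and 1 fell, with 111 to 157 CPM in DKO-labelled libraries against 13.6 to 399 CPM in WT-labelled libraries. Their summed level was nonetheless higher in the median library labelled DKO (134 CPM) than in the median library labelled WT (25 CPM). Of the 5 skeletal muscle markers 0 rose and 0 fell. None of the markers was at 0 in a group, and the part of these cells in the phosphodiesterase values was not tested.

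The erythroid, granulocyte and B lineage scores, each the mean log2 CPM of a marker list, together predicted 67.6% of the variance of the DKO and WT labels. With these scores as covariates, 2 of the 7 calls were kept, and 12.6% of all genes passed, against 55.0% without the scores. Pde7b had a log2 fold change of -1.65 (edgeR adjusted p = 0.00237) and Pde4d of -0.93 (edgeR adjusted p = 0.0142). Pde8a had -0.06, Pde3b -0.43, Pde4b -0.27, Pde4a 0.10 and Pde3a -0.24, none of them past the test.

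The C1HR experiment asks what receptor signalling without the hormone changes in bone RNA. All 10 phosphodiesterase genes passed the test, 6 higher in C1HR (Pde1a, Pde3b, Pde4a, Pde4b, Pde7b and Pde8a) and 4 lower (Pde3a, Pde4d, Pde7a and Pde10a). Among all 13976 genes tested, 84.3% passed, 43.7% higher and 40.6% lower, and 10 of 10 is close enough to that share to say nothing particular of these genes. Of the 6 cAMP-specific genes 4 rose and 2 fell, and of the 4 genes for enzymes that cut both nucleotides 2 rose and 2 fell. The median log2 fold change of the 10 members was 0.69, against 0.05 over all genes tested. Beyond a 2-fold change, 4 were higher (Pde1a, Pde4a, Pde7b and Pde8a) and Pde3a lower, where 38.9% of all genes passed, 22.1% higher and 16.8% lower. With no overlap between groups 5 were higher and 2 lower, where 27.8% of all genes were higher and 24.9% lower.

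Pde7b again had the largest log2 fold change of the 10. It had 37.8, 48.1 and 73.5 CPM (lowest, median, highest) in the 12 C1HR libraries, against 6.43, 9.48 and 11.9 CPM in the 11 WT libraries. The lowest C1HR library, C1HR 9, was still above the highest WT library. Pde7b was 5.73-fold higher in C1HR (log2 change 2.52 with SE 0.13, edgeR adjusted p = 4.75e-15). Pde8a had 58.6, 67.8 and 79.7 CPM in C1HR, against 20.0, 25.5 and 27.6 CPM in its WT group, with no overlap. It was 2.73-fold higher in C1HR (log2 change 1.45 with SE 0.06, edgeR adjusted p = 2.22e-16). Pde7a moved the other way, with 13.6, 18.4 and 21.6 CPM in C1HR against 23.9, 25.2 and 29.2 CPM in its WT group, again with no overlap. It was 1.43-fold lower in C1HR (log2 change -0.51 with SE 0.06, edgeR adjusted p = 3.14e-08).

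Pde4a and Pde4b rose in C1HR and Pde4d fell. Pde4a had 18.6, 28.8 and 33.6 CPM in C1HR, against 8.74, 9.71 and 11.2 CPM in its WT group. All C1HR libraries were above all WT libraries, and C1HR 8 and C1HR 9 were the lowest of them. Pde4a was 2.79-fold higher in C1HR (log2 change 1.48 with SE 0.10, edgeR adjusted p = 2.83e-13). Pde4b had 16.2, 23 and 26.1 CPM in C1HR, against 13.6, 15.7 and 19.1 CPM in its WT group. C1HR 8 and C1HR 9 were the only C1HR libraries within the WT range, and the 1.40-fold rise (log2 change 0.49 with SE 0.07, edgeR adjusted p = 1e-06) was not called with libraries scaled by their totals alone (0.08, edgeR adjusted p = 0.319). Pde4d had 13.2, 17.5 and 20.8 CPM in C1HR, against 20.6, 22.99 and 26.8 CPM in its WT group. C1HR 8 alone reached into the WT range, and Pde4d was 1.36-fold lower in C1HR (log2 change -0.44 with SE 0.07, edgeR adjusted p = 1.27e-06).

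Of the genes for enzymes that cut both nucleotides, Pde1a had 20.7, 25.4 and 30.4 CPM in C1HR, against 8.75, 11.5 and 13.6 CPM in its WT group. The groups did not overlap, and Pde1a was 2.25-fold higher in C1HR (log2 change 1.17 with SE 0.07, edgeR adjusted p = 2.13e-13). Pde3b had 19.7, 25.5 and 33.6 CPM in C1HR, against 11.3, 14.5 and 16.2 CPM in its WT group. It was 1.851-fold higher in C1HR with no overlap (log2 change 0.89 with SE 0.09, edgeR adjusted p = 9.39e-10). Pde3a had 6.68, 8.82 and 11.1 CPM in C1HR, against 14.02, 18.2 and 23.99 CPM in its WT group. It was 2.10-fold lower in C1HR with no overlap (log2 change -1.07 with SE 0.09, edgeR adjusted p = 2.21e-11). Pde10a had 8.26, 9.45 and 12.5 CPM in C1HR, against 12.5, 15.5 and 19.5 CPM in its WT group. The groups met at a single pair of libraries, C1HR 12 and WT 1, and Pde10a was 1.55-fold lower in C1HR (log2 change -0.63 with SE 0.08, edgeR adjusted p = 6.58e-08).

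Without C1HR 8 and C1HR 9, all 10 members still passed, 6 were higher and 3 lower with no overlap, and Pde10a alone overlapped. The log2 fold changes were then 2.46 for Pde7b, 1.45 for Pde4a, 1.37 for Pde8a, 1.09 for Pde1a, 0.79 for Pde3b and 0.43 for Pde4b, and -1.20 for Pde3a, -0.73 for Pde10a, -0.66 for Pde7a and -0.61 for Pde4d. Among all genes, 85.2% then passed and 57.8% had no overlap, 30.1% higher and 27.6% lower. Without WT 5 and WT 6 in the Sik2/3 experiment, 8 members passed, with Pde7a added, where 64.4% of all genes passed, and 1 was higher and 6 lower with no overlap. The log2 fold changes were then -1.90 for Pde7b, -0.91 for Pde3b, -0.84 for Pde4d, -0.73 for Pde4b, -0.46 for Pde4a and 1.26 for Pde3a. Among all genes, 36.2% then had no overlap, 17.7% higher and 18.5% lower.

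Cell markers moved in C1HR as well. All 6 osteoblast markers rose, with summed levels of 140300 to 287400 CPM in C1HR against 30580 to 59770 CPM in its WT group. All 6 tested osteoclast markers, 4 of 5 osteocyte markers and all 5 endothelial markers also rose. All 5 macrophage markers rose, with 988 to 1673 CPM in C1HR against 460 to 585 CPM in its WT group. Of the 5 mast cell markers 4 rose and 1 fell, with 122 to 419 CPM in C1HR against 54.8 to 67.6 CPM in its WT group, and all 3 tested smooth muscle markers rose. All 7 erythroid markers fell, with 257 to 8452 CPM in C1HR against 16090 to 35000 CPM in its WT group. All 7 granulocyte markers fell, with 218 to 5205 CPM in C1HR against 12250 to 18270 CPM in its WT group, and all 5 megakaryocyte markers fell, with 24.2 to 300 CPM in C1HR against 1198 to 2631 CPM in its WT group. Of the 7 B lineage markers 6 fell and 0 rose, with 83.9 to 203 CPM in C1HR against 314 to 448 CPM in its WT group. Other lists were mixed or moved little. In T and NK cells 1 of 6 tested markers rose and 3 fell, and in nerve and glia 1 of 3 tested rose and 2 fell. Of 3 tested adipocyte markers 1 rose and 0 fell, and of 5 skeletal muscle markers 0 passed. None of the markers was at 0 in a group, and the part of these cells in the phosphodiesterase values was not tested. The 3 blood lineage scores predicted 84.5% of the variance of the C1HR and WT labels. With the scores as covariates 6 of the 10 calls were kept, and 45.5% of all genes passed, against 84.3% without the scores. Pde7b had a log2 fold change of 2.42, Pde8a of 1.20, Pde1a of 1.09, Pde3a of -0.98, Pde4a of 0.72 and Pde10a of -0.71, with edgeR adjusted p of 1.02e-07 to 0.00709. Pde3b (0.45), Pde4b (0.23), Pde4d (-0.23) and Pde7a (-0.16) were not past the test.

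**Figure D2:**
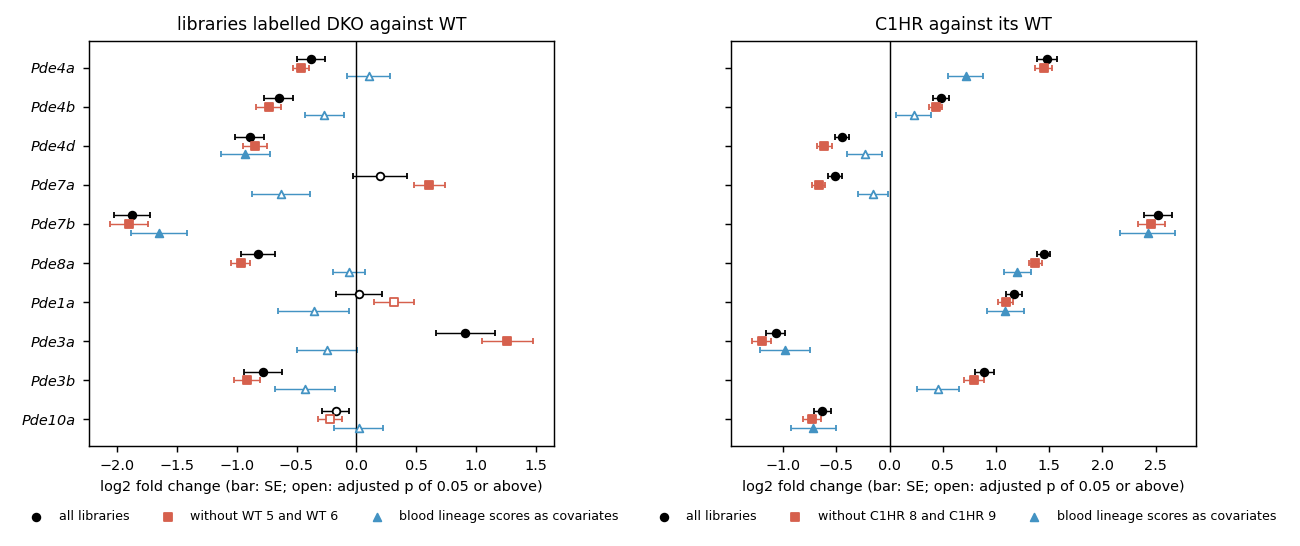
log2 fold change of each phosphodiesterase gene with its standard error in the Sik2/3 experiment (left, labelled DKO against WT) and the C1HR experiment (right, C1HR against WT), with all libraries, without the libraries that stood apart, and with the 3 blood lineage scores as covariates. Filled symbols passed an adjusted p under 0.05. Pde7b kept its direction and its call under each of these settings in both panels, from -1.90 to -1.65 on the left and from 2.42 to 2.52 on the right, whereas Pde8a in DKO-labelled libraries was at -0.06 with the scores.

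The change in DKO-labelled libraries differed from the change in C1HR for all 10 members, tested as a contrast in 1 fit of the 4 groups (edgeR adjusted p of 3.89e-19 to 0.0061). Among all 15387 genes tested, 80.2% passed this contrast, 42.0% lower and 38.1% higher, and the count of members is close to that share. Beyond a 2-fold difference there were 6 members lower and 1 higher, where 28.9% of all genes were lower and 23.9% higher. For Pde7b the DKO effect minus the C1HR effect was -4.33 on the log2 scale (SE 0.20), and for Pde8a it was -2.21 (SE 0.14). It was -1.80 for Pde4a, -1.61 for Pde3b, -1.09 for Pde1a, -1.08 for Pde4b and -0.38 for Pde4d. It was 2.04 for Pde3a (SE 0.24), 0.77 for Pde7a and 0.52 for Pde10a. These values hold for the labels as given, against which Sik2 went. With the sign of the Sik2/3 effect turned, an alternative chosen after the data were seen, 6 of the 10 members differed, where 56.6% of all genes passed. The contrast was then -0.68 for Pde7b, -0.65 for Pde8a, -1.12 for Pde4a, -1.22 for Pde1a, 1.32 for Pde4d and 0.78 for Pde10a. Pde3a (0.14), Pde3b (-0.13), Pde4b (0.14) and Pde7a (0.30) were not past the test. The experiments differed in depth, and the sources conflict on whether their bone was prepared alike. Each WT group belongs to its own experiment. The contrast therefore also holds any difference between experiments that acted on a mutant and its WT group unequally.

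Pde3b, Pde4a, Pde4b, Pde7b and Pde8a fell in DKO-labelled libraries and rose in C1HR, a pattern shared by 25.8% of the 13821 genes tested in both experiments. Pde3a rose in DKO-labelled libraries and fell in C1HR, as 21.4% of genes did. Pde4d was the member that fell in both, and 3.88% of genes passed in the same direction in both. These patterns also rest on the labels of the Sik2/3 experiment. With its signs turned, Pde3b, Pde4a, Pde4b, Pde7b and Pde8a would be higher in both, Pde3a lower in both and Pde4d the member that moved in opposite directions. As labelled, for Pde4d the contrast depended on the scaling. With library totals alone it was 0.17 (edgeR adjusted p = 0.252) while the median over all genes moved to 0.44, and relative to that median it was -0.27, against -0.28 with TMM scaling.

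**Figure D3:**
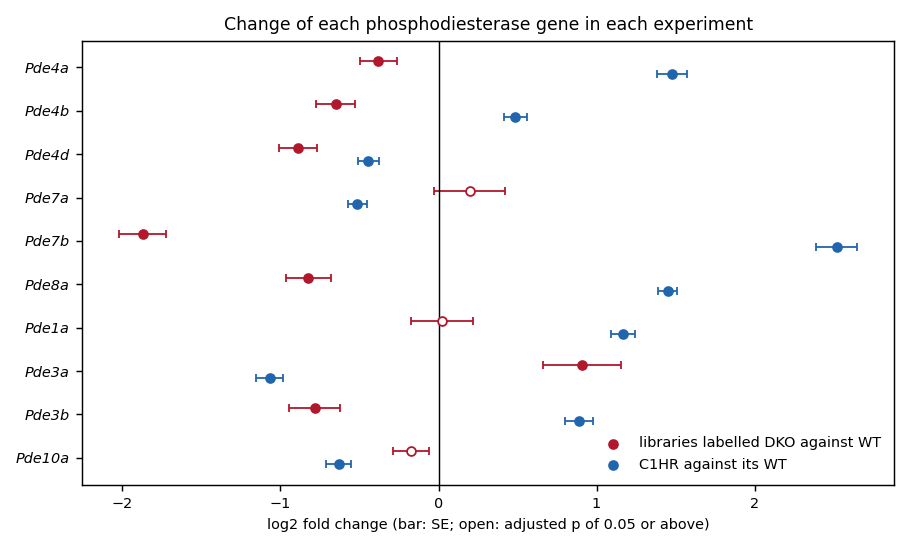
log2 fold change of each phosphodiesterase gene with its standard error in DKO-labelled libraries against WT (red) and in C1HR against its WT group (blue). Filled points passed an adjusted p under 0.05. Pde7b lies farthest from 0 in both comparisons, at -1.87 and 2.52, and Pde4d is the gene called lower in both, at -0.89 and -0.44.

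Levels of different genes were compared per kilobase of exon. Pde8a was the highest of the 10 in each group, with 16.2 ± 1.91 CPM per kb in DKO-labelled libraries and 28.7 ± 6.76 in WT-labelled libraries (SD, n = 8 each), and with 16.8 ± 1.46 in the 12 C1HR libraries and 6.14 ± 0.659 in the 11 WT libraries of that experiment (SD). Pde8a exceeded the next gene in every library of each group. Pde7b was second in DKO-labelled libraries (4.81 CPM per kb), in WT-labelled libraries (17.6) and in C1HR (7.15), but 9th of 10 in the WT group of C1HR (1.25), where Pde3a was second (4.37). In DKO-labelled libraries, Pde7b, Pde7a, Pde4a, Pde3a, Pde1a and Pde3b followed each other with differences no larger than 1 SD over libraries. In WT-labelled libraries, the 8 genes below Pde7b did not differ from their neighbours in the order by more than 1 SD. Pde10a was last by mean in each group, at 1.52 CPM per kb in DKO-labelled libraries, 1.71 in WT-labelled libraries, 0.776 in C1HR and 1.20 in its WT group. Its gap to the gene above exceeded 1 SD in C1HR alone. The order rests on exon length, 12598 bases for Pde10a and 4045 for Pde8a. In CPM, Pde10a was the lowest member in no group. In WT-labelled libraries Pde3a had 8.97 CPM against 21.6 CPM for Pde10a, and Pde7b (127 CPM) was above Pde8a (116 CPM).

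Pde7b held 10.4% ± 1.58 of the summed level per kb of the 10 genes in DKO-labelled libraries, against 23.3% ± 3.58 in WT-labelled libraries. It held 16.1% ± 2.59 in C1HR, against 4.97% ± 0.83 in its WT group. Pde8a held 35.2% in DKO-labelled libraries against 37.8% in WT-labelled libraries, and 38.04% in C1HR against 24.6% in its WT group. The summed counts of the 10 genes came to 291 ± 15.7 CPM in DKO-labelled libraries against 481 ± 49.5 CPM in WT-labelled libraries, and to 274 ± 25.6 CPM in C1HR against 168 ± 8.64 CPM in its WT group. The spread between libraries was widest in the group labelled WT of the Sik2/3 experiment, where the coefficient of variation had a median of 23.1% over the 10 genes, against 16.1% in DKO-labelled libraries. It was 13% in C1HR and 11.6% in its WT group.

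**Figure D4:**
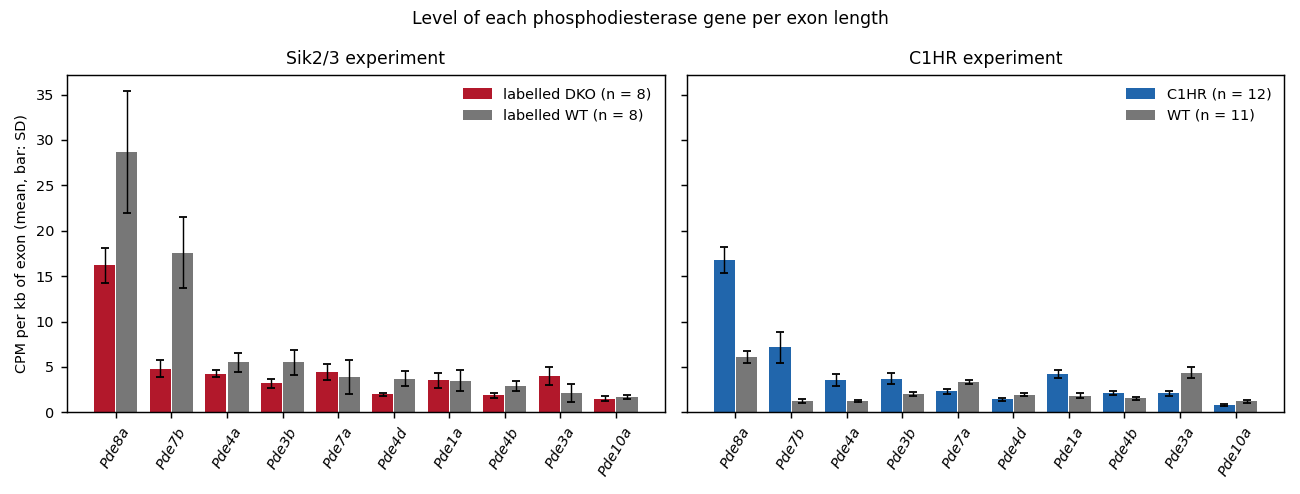
Mean level of each phosphodiesterase gene in CPM per kb of exon, with SD, in the Sik2/3 experiment (left, labelled DKO in red and WT in grey) and the C1HR experiment (right, C1HR in blue and WT in grey). Pde8a is the tallest bar in each group, and Pde7b is second except in the WT group of C1HR, where it is at 1.25.

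Of the 10 symbols, Pde4d is the one with more than 1 gene identifier in the tables. A short second row (ENSMUSG00000074661; chr13:110744317-110746171, plus strand, 1855 bases) starts 647 bases beyond the end of the long gene. The second row had 9.02, 9.97 and 13.7 CPM in DKO-labelled libraries, against 17.9, 25.4 and 31.3 CPM in WT-labelled libraries. It was 2.33-fold lower in DKO-labelled libraries with no overlap (log2 change -1.22 with SE 0.13, edgeR adjusted p = 1.28e-05). In C1HR it had 8.25, 9.81 and 13.9 CPM, against 6.60, 8.77 and 10.6 CPM in its WT group. The groups overlapped and the second row was 1.20-fold higher in C1HR (log2 change 0.26 with SE 0.10, edgeR adjusted p = 0.0138), the other direction than the long gene.

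The second row was 0.454 ± 0.0698 of the long gene's count in DKO-labelled libraries against 0.586 ± 0.144 in WT-labelled libraries (SD, n = 8 each). The ratio was 0.600 ± 0.11 in the 12 C1HR libraries against 0.365 ± 0.0471 in the 11 WT libraries (SD). No test was made of the ratio. With both rows summed, Pde4d had a log2 fold change of -1.002 in DKO-labelled libraries (edgeR adjusted p = 1.18e-05) and of -0.22 in C1HR (edgeR adjusted p = 0.00243).

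**Figure D5:**
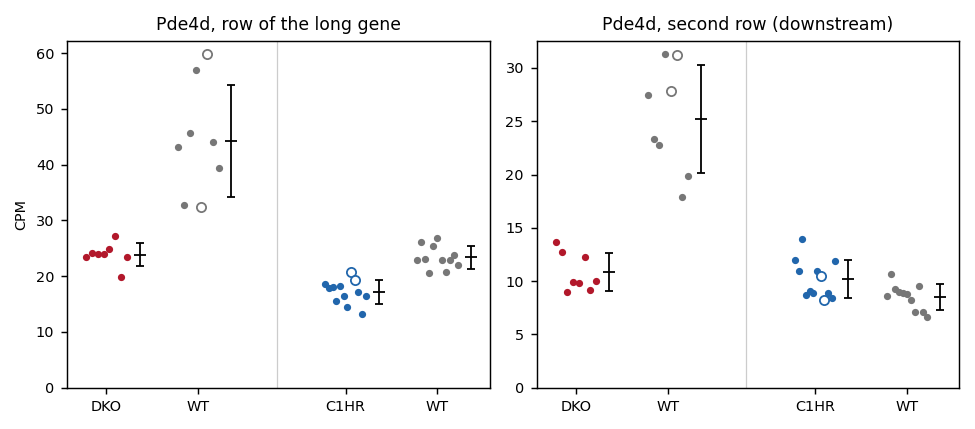
CPM of the long Pde4d gene (left) and of the short second row downstream of it (right) in each library, with mean ± SD and open circles for WT 5, WT 6, C1HR 8 and C1HR 9. In C1HR against its WT group the long gene is lower (13.2 to 20.8 against 20.6 to 26.8 CPM) while the second row ranges higher (8.25 to 13.9 against 6.60 to 10.6 CPM).

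Other genes of the pathway were taken as lists chosen by function. Over all genes tested, 24.1% rose and 30.9% fell in DKO-labelled libraries, and 43.7% rose and 40.6% fell in C1HR. Of 7 tested genes for other phosphodiesterases, 4 rose and 1 fell in DKO-labelled libraries, with a median log2 fold change of 0.44 against -0.09 over all genes. Pde2a, which cGMP stimulates to cut cAMP, had 134, 175 and 202 CPM in DKO-labelled libraries, against 53.9, 60.4 and 116 CPM in WT-labelled libraries. The groups did not overlap, and Pde2a was 2.47-fold higher in DKO-labelled libraries (log2 change 1.30 with SE 0.15, edgeR adjusted p = 1.85e-05). Pde1b rose as well (0.59) and Pde8b, the relative of Pde8a, fell (-0.91). In C1HR 2 of these 7 rose and 3 fell (median -0.11, against 0.05 over all genes). Pde8b (1.15) and Pde9a (1.33), a cGMP-specific enzyme, rose in C1HR, and Pde2a (-0.78) and the cGMP-specific Pde5a (-0.68) fell. Without C1HR 8 and C1HR 9, Pde9a was too low to be tested, and with library totals alone Pde1c fell as well (-0.52, edgeR adjusted p = 0.0458). Pde4c, named because it completes the PDE4 family, averaged 1.65 CPM in DKO-labelled libraries against 1.00 CPM in WT-labelled libraries (0.71, edgeR adjusted p = 0.0434), and 0.508 CPM in C1HR against 1.13 CPM in its WT group (-1.12, edgeR adjusted p = 0.000327), the opposite direction to Pde4a and Pde4b in both. Pde6a, Pde6b, Pde6c and Pde11a were too low to be tested in either comparison.

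Of the 8 tested adenylyl cyclases, which make cAMP, 2 rose and 2 fell in DKO-labelled libraries (median 0.05), and 5 rose and 2 fell in C1HR (median 0.60). Over all genes tested, the medians were -0.09 and 0.05, and 55.0% and 84.3% passed, in the same order. Adcy3 averaged 52.8 CPM in DKO-labelled libraries against 175 CPM in WT-labelled libraries (log2 change -1.73 with SE 0.27, edgeR adjusted p = 0.000121), and 133 CPM in C1HR against 40.8 CPM in its WT group (1.70, SE 0.11, edgeR adjusted p = 1.41e-13). Of the exon bases of Adcy3, 22.1% overlap Cenpo on the opposite strand, and reads were counted without strand. Adcy2 had -0.61 in DKO-labelled libraries and 1.93 in C1HR, whereas Adcy7 had 0.84 and -0.55 and Adcy5 had 0.86 and -0.40 in the same order. With library totals alone 4 rose and 2 fell in DKO-labelled libraries, where Adcy6 (0.38) and Adcy9 (0.46) were added, and 4 rose and 3 fell in C1HR, where Adcy9 was no longer called (-0.03) and Adcy6 fell (-0.33). Adcy9 also rose in DKO-labelled libraries without WT 5 and WT 6 (0.40, edgeR adjusted p = 0.00435). Adcy8 and Adcy10 were too low to be tested.

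Of the guanylyl cyclases, which make cGMP, 3 of 5 tested genes rose and 1 fell in DKO-labelled libraries (median 0.58). In C1HR 3 of 4 tested genes rose and 1 fell (median 0.56). Over all genes, the medians were -0.09 in DKO-labelled libraries and 0.05 in C1HR, where 55.0% and 84.3% of genes passed. Npr2, the receptor of C-type natriuretic peptide, averaged 56.3 CPM in C1HR against 11.4 CPM in its WT group (log2 change 2.30 with SE 0.11, edgeR adjusted p = 6.83e-16), and had -0.55 in DKO-labelled libraries. Gucy1b3, a subunit of the cyclase that nitric oxide activates, had 1.04 in DKO-labelled libraries and -1.58 in C1HR. Npr1, the receptor of atrial natriuretic peptide, rose in DKO-labelled libraries (0.58), and the rise of Gucy1a3 in C1HR (0.46) was not called with library totals alone (0.05). Gucy2g had 1.12 in DKO-labelled libraries and did not pass with all libraries, and passed without WT 5 and WT 6 (2.42, edgeR adjusted p = 8.93e-05). Exons of Npr1 and Npr2 overlap genes on the opposite strand over 11.7% and 5.70% of their bases. Gucy1a2, Gucy1b2, Gucy2c, Gucy2e and Gucy2f were too low to be tested in either comparison, and Gucy2g in C1HR.

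The effectors that read cyclic nucleotides were 10 genes for subunits of the cAMP-dependent and cGMP-dependent protein kinases and for the Epac exchange factors. In DKO-labelled libraries 2 rose and 8 fell (median -0.30), and in C1HR 7 rose and 2 fell (median 0.37). Over all genes tested, 55.0% passed in DKO-labelled libraries (median -0.09) and 84.3% in C1HR (median 0.05). Of the 8 that fell in DKO-labelled libraries, 5 were not called with library totals alone (Prkaca, Prkacb, Prkar1a, Rapgef3 and Rapgef4), and Prkacb changed sign to 0.05. In C1HR 5 rose and 5 fell with library totals alone, where Prkar1a (-0.23) and Prkar2a (-0.20) were called lower in place of higher and Prkaca (-0.33) fell as well. Without C1HR 8 and C1HR 9, Prkar1a (0.06) and Prkar2a (0.08) were no longer called. Prkar2b, a regulatory subunit of protein kinase A, averaged 138 CPM in DKO-labelled libraries against 41.0 CPM in WT-labelled libraries (log2 change 1.76 with SE 0.40, edgeR adjusted p = 0.00156), and 35.2 CPM in C1HR against 262 CPM in its WT group (-2.89, SE 0.28, edgeR adjusted p = 1.29e-09). Its log2 fold change was 2.70 in DKO-labelled libraries without WT 5 and WT 6, and -3.58 in C1HR without C1HR 8 and C1HR 9. Prkg1 had 0.91 in DKO-labelled libraries, 1.65 without WT 5 and WT 6, and -0.65 in C1HR. Among those that fell in DKO-labelled libraries, Prkar2a had -0.69 and Prkg2, a cGMP-dependent kinase known from growth plate cartilage, had -2.65. Rapgef4, which encodes an Epac protein, had 2.01 in C1HR and Prkar1b had 1.87. Of the exon bases of Prkar1b, 8.95% overlap Gm15672 on the same strand. Exons of Rapgef3 and Rapgef4 overlap genes on the opposite strand over 9.81% and 5.01% of their bases.

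Of the 7 genes for anchoring partners of phosphodiesterases and for exporters of cyclic nucleotides, 2 rose and 3 fell in DKO-labelled libraries (median -0.16), and 3 rose and 3 fell in C1HR (median 0.09). The shares over all genes were 55.0% in DKO-labelled libraries (median -0.09) and 84.3% in C1HR (median 0.05). Akap6, an anchoring protein that binds protein kinase A and PDE4D, averaged 12.3 CPM in DKO-labelled libraries against 36.7 CPM in WT-labelled libraries (log2 change -1.58 with SE 0.18, edgeR adjusted p = 1.65e-05), and 14.7 CPM in C1HR against 4.76 CPM in its WT group (1.62, SE 0.12, edgeR adjusted p = 4.97e-12). Akap9, an anchoring protein of the Golgi and centrosome, had 1.37 in C1HR. Abcc4, which pumps cAMP out of cells, had 0.65 in DKO-labelled libraries and -0.89 in C1HR. Gnb2l1, which encodes RACK1, a partner of PDE4D5 in human cells, had -0.35 in DKO-labelled libraries, a call that was lost with library totals alone (-0.14, edgeR adjusted p = 0.345). Other genes overlap 4.83% of the exon bases of Gnb2l1. Abcc5, another exporter, was not past the test in either experiment. With library totals alone it rose in DKO-labelled libraries (0.39) and fell in C1HR (-0.31), and without WT 5 and WT 6 it rose in DKO-labelled libraries (0.22, edgeR adjusted p = 0.00404).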

How the data were processed

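RNA of mouse femoral cortical bone was sequenced as single-end reads, and the authors mapped reads with STAR to mm9 and counted them per gene with HTSeq 0.6.0, without strand, per the labels and the design text. The deposited values are whole-number counts for 37583 genes with 5 tallies of unassigned reads (33.8% to 61.2% of reads), left out here. Their shares differed between C1HR and its WT group, and between DKO-labelled libraries and most libraries labelled WT. The design text names 6 WT samples of the Sik2/3 experiment, and all 8 labelled were used. The sclerostin antibody model was not analysed here.

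Names, coordinates and exons came from GENCODE vM1 on NCBIM37, which matched 37168 identifiers. In each experiment, genes were filtered (filterByExpr, minimum count 10, minimum total 15), scaled by TMM and tested with edgeR 4.0.16 (quasi-likelihood, robust), with Benjamini-Hochberg adjustment over all genes and a threshold of 0.05. The standard error was the fold change over the root of F. CPM per kb used merged exon lengths. Alternatives used DESeq2 1.42.0 and limma 3.58.1. The tests were checked on simulated counts. PCR reads are not independent molecules. No pair of libraries in a group agreed within counting noise (chi-square per degree of freedom of 4.61 or more). This does not show that libraries are independent, because some pairs were far closer than others. In the WT group of the DKO experiment, WT 1 and WT 2 had 7.365, and each had 41.98 or more with any other library. WT 3 and WT 4 had 17.97, against 41.98 or more with any other. WT 7 and WT 8 had 18.26, against 43.8 or more, and WT 5 and WT 6 had 132.8, against 236.2 or more. Each library of that group was thus closest to 1 neighbour in number, so the group may hold fewer independent units than libraries. C1HR 8 and C1HR 9 had 8.554, and each had 50.82 or more with any other C1HR library. The tests treat all libraries as independent, and the effect of such pairs on the p-values was not tested. The members, gene lists and rule for naming genes (all members, then of each list up to 2 tested genes with the smallest p in each direction) were chosen with earlier results of these data known. Of the genes the rule picks, 1 is not reported here. Promoter sequences are from RefSeq.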

Additional observations from a re-analysis of the deposited data

Results flagged for a closer look

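Pde4a in the library labelled WT 5 stood far from the other libraries labelled WT, at 23.4 CPM against 40.8 to 48.4 CPM in the other 7. Its gap to the nearest library exceeded the 95% limit of Dixon's test for 8 values, which chance alone exceeds in about 1 in 20 groups. That limit holds for 1 gene in 1 group and takes no account of how many were looked at. WT 5 also had the fewest counts assigned to genes (20324595) and the largest share of unassigned reads (53.8%) in the Sik2/3 experiment. Each of the 10 genes had a change in DKO-labelled libraries that differed from its change in C1HR by the contrast of both effects, against 80.2% of all genes. The difference on the log2 scale, the DKO effect minus the C1HR effect, was -4.33 for Pde7b, -2.21 for Pde8a, -1.80 for Pde4a, -1.61 for Pde3b, -1.09 for Pde1a, -1.08 for Pde4b, -0.38 for Pde4d, 0.52 for Pde10a, 0.77 for Pde7a and 2.04 for Pde3a. These differences take the labels of the Sik2/3 experiment as given, against which Sik2 went, and whether the labels are exchanged was not tested. With the sign of that effect turned, 6 of the 10 genes differed, where 56.6% of all genes did, and Pde7b had -0.68.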

How the results depend on the processing

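In the Sik2/3 experiment, 7 members passed the test. The count was 1 with a 2-fold change required as well and 2 with the blood lineage scores as covariates, and 7 to 8 when single libraries were left out. In the C1HR experiment 10 passed, 5 with the 2-fold rule, 6 with the scores and 10 in each fit that left out 1 library. For the difference of the effects, 10 passed, and 10 in each fit that left out 1 library. With the sign of the Sik2/3 effect turned, which was chosen after seeing the data, 6 passed, and Pde4b (0.14) and Pde4d (1.32) changed sign. Scaling by library totals moved the median over all genes to 0.12 in the Sik2/3 experiment and to -0.35 in the C1HR experiment. With library totals Pde10a in DKO-labelled libraries changed sign to 0.042, although relative to the median of all genes it was -0.08 under both scalings, and the Pde4d difference changed sign to 0.17. With the scores, Pde1a (-0.36), Pde3a (-0.24), Pde4a (0.10), Pde7a (-0.63) and Pde10a (0.019) changed sign in DKO-labelled libraries, and the cause was not tested. The Pde1a value there, close to 0 and not past the test, ranged from -0.058 to 0.14 when single libraries were left out. Pde7a became called with limma voom weights (0.65), without WT 5 and WT 6 (0.61) and without WT 6 (0.44), and Pde10a with limma voom weights (-0.32).

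Replicate numbers did not pair the libraries: the deviations of same-numbered libraries correlated at -0.26 to 0.31 over 8 pairs and at -0.18 to 0.34 over 11 pairs. With a replicate block, 7 members passed in the Sik2/3 experiment and 10 in the C1HR experiment. With 92 or more counts in each library, depth did not remove any member from testing.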
